A study of Mus musculus with 29 samples.

Results

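Genes of the sterol regulatory element binding protein (SREBP) pathway and of fatty acid synthesis were followed with age in whole tibialis anterior (TA) muscle, as the 10 rows with the symbols Srebf1, Srebf2, Acly, Me1, Acaca, Acacb, Fasn, Elovl6, Scd1 and Scd2 among the 22537 genes counted. All mice were male C57BL/6 mice of an aging colony with no deletion, transgene or drug treatment under study, were anaesthetised with ketamine and xylazine before they were killed, and had been tested for physical function and exercise capacity before their muscles were taken. Poly-A RNA of 7 mice at 6m, 7 mice at 24m and 8 mice at 28m (labelled as 28 months or more) was sequenced. The 24m and 6m mice were sequenced first, and the 28m mice in another run together with repeat libraries of those 7 young mice, so each old group was compared with the 6m libraries of its own run. The runs hold different old groups but the same young mice, and the fits of the 2 ages therefore share their control animals.

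SREBPs are transcription factors made as precursors in the membrane of the endoplasmic reticulum, where the sterol sensor Scap and the Insig proteins hold them. When sterols are low, or under insulin for the SREBP-1c form of Srebf1, the precursor moves to the Golgi, is cut by a pair of proteases, and its free end enters the nucleus. Srebf1 is best known for driving fatty acid synthesis and Srebf2 for driving cholesterol synthesis and uptake. Fatty acid synthesis runs from citrate to acetyl-CoA (Acly), to malonyl-CoA (Acaca in the cytosol, Acacb at the mitochondrial surface), to palmitate (Fasn, with NADPH from Me1 and others), and on to longer (Elovl6) and monounsaturated chains (Scd1 and Scd2). In muscle, malonyl-CoA made by Acacb is known above all as the brake on fatty acid entry into mitochondria. The amount and cleavage of SREBP proteins, enzyme activity and lipids were not measured here, and fasting and time of day at collection are not given in the sources used here.

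At 28m, 6 of the 10 genes fell against 6m and none rose, while Acly, Me1, Elovl6 and Scd1 did not pass the test. Of 12994 genes tested in this comparison, 47.3% passed an adjusted p of 0.05, 22.9% passed it in the lower direction and 24.3% in the higher one (quasi-likelihood F test of edgeR, p-values adjusted by Benjamini-Hochberg, as for every adjusted p unless another tool is named). At 24m, Srebf1 fell and the other 9 genes did not pass, against 0.084% of 13103 genes called and 0.0229% called lower. The lowest 28m value of log2 fold change among the 10 was that of Scd2, the single gene of the 10 that fell at least 2-fold, as did 3.37% of all genes.

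Transcript length moved with these differences. The log2 fold change at 28m correlated with exonic length over 12871 genes (Spearman's rho -0.54, given as a description across genes of the same libraries), and the share of genes called lower was 2.59% under 2000 bases of exon and 56.3% at 10000 bases or more. Acaca, with 17074 exonic bases, and Fasn, with 10947, are in the longest class, while Me1, with 3848, is the shortest of the 10. In each library, the median log2 deviation of long genes (10000 bases or more) minus that of short genes (under 2000), against the mean of the 6m libraries, was between 0.02 and 0.18 in the 6m libraries of the second run. It was -1.49, -0.85 and -0.06 as the lowest, median and highest of the 8 libraries at 28m. Replicate 4 at 6m in the first run (-1.03) and replicate 4 at 24m (-1.73) stood apart from the other first-run libraries, which were between -0.35 and 0.24. The fits were therefore repeated with the trend of each library with length and GC content removed, and where this ends the call of one of the 10 genes, that is said beside its value. With it, 3 of the 10 genes fell at 28m (Srebf2, Acacb and Scd2), against 15.7% of all genes called lower. With the 6m libraries of the other run in place of those of the second run, 2 of the 10 fell (Srebf1 and Scd2), against 11% of all genes, and the calls of Srebf2, Acacb, Acaca and Fasn ended. When replicate 4 was also left out of those libraries, a choice made after seeing the data, Srebf2 and Acacb were called again. Acaca and Fasn were not, and 2324 of 13071 genes were called lower there.

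The letters before the starts of transcription are shown for the genes the results turn on, since the SREBP pathway is defined by a short promoter element. RefSeq sequences (GRCm38.p6) were matched for 8 of the 10 genes, with 11 starts, and the 250 bases before each were searched on both strands for TCACNCCA (the core of the sterol regulatory element), CACGTG (the E-box), CCAAT (the NF-Y box) and GGGCGG (the Sp1 box). Scd1 and Scd2 were not matched. Each sequence below reads 5′ to 3′ on the strand of its gene, ends at the base before the RefSeq start (for Srebf2, before the earlier start of the gene in GENCODE, which leaves out the last 88 bases of its window), and has matches in capitals, with ATTGG and CCGCCC as the reverse forms.
Srebf2, chr15:82147019-82147180, plus strand: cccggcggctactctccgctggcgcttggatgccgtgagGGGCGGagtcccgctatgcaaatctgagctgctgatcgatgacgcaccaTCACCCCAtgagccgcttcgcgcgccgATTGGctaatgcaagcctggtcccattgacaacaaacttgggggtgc
Fasn, chr11:120824548-120824797, minus strand: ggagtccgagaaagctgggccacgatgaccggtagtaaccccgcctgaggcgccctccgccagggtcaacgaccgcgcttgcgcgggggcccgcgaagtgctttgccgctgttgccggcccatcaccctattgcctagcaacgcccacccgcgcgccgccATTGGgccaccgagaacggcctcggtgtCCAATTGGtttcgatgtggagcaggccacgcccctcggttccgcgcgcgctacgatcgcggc
Srebf1, internal start, chr11:60210472-60210721, minus strand: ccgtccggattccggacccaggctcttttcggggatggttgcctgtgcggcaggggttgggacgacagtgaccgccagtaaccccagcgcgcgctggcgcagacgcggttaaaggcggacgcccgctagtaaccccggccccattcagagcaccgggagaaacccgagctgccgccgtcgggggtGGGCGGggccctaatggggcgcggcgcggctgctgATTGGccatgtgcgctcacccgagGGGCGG
Positions are counted back from the RefSeq start, and for Srebf2 88 bases lie between that start and the end of the sequence shown. Srebf2 was the single start of the 11 with TCACNCCA, read as TCACCCCA at positions -162 to -155, and 3.67% of 32851 RefSeq starts held that motif. CACGTG was in none of the 11 and in 6.02% of all. CCAAT was at 6 of the 11 and at 33.8% of all starts, and GGGCGG was at 5 of the 11 and at 32.7% of all. The Fasn start held CCAAT in its reverse form at -90 and as an overlapping pair of both forms at -62 and -59. Srebf1 has 3 starts in RefSeq, and the window shown lies inside the span of the gene. The windows searched for Acaca and Acacb also lie inside their genes. The bases before the first GENCODE start of these genes were not searched. These matches are letters in a window, and binding was not measured.

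By CPM (the counts of a gene relative to the scaled total of its library) per kb of exon, the 10 genes differed in level by more than 2 orders of magnitude. In the 6m libraries of the second run, Acacb was at 54.0 ± 5.86 CPM per kb (SD, n = 7) and Me1 at 49.6 ± 2.90, followed by Srebf1 (14.5 ± 1.72), Scd1 (10.3 ± 5.07), Scd2 (5.84 ± 1.69), Acly (3.93 ± 0.394), Srebf2 (2.74 ± 0.379), Fasn (2.27 ± 0.669), Acaca (0.723 ± 0.0638) and Elovl6 (0.169 ± 0.0595). Single libraries of neighbours in that order overlapped between Acacb and Me1, Srebf1 and Scd1, Scd1 and Scd2, Scd2 and Acly, and Srebf2 and Fasn, and did not overlap between the other neighbours. At 28m the order was Me1 (45.8 ± 15.7, n = 8), Acacb (31.2 ± 11.8), Scd1 (11.5 ± 9.89), Srebf1 (9.64 ± 1.99), Acly (4.01 ± 0.599), Scd2 (2.89 ± 0.732), Srebf2 (1.72 ± 0.704), Fasn (1.44 ± 0.586), Acaca (0.552 ± 0.128) and Elovl6 (0.133 ± 0.0518). Elovl6 was counted with 8 to 40 reads in a library, so its values carry large counting error. Together the 10 genes took between 0.0408% and 0.106% of the counts of a library.

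**Figure D1:**
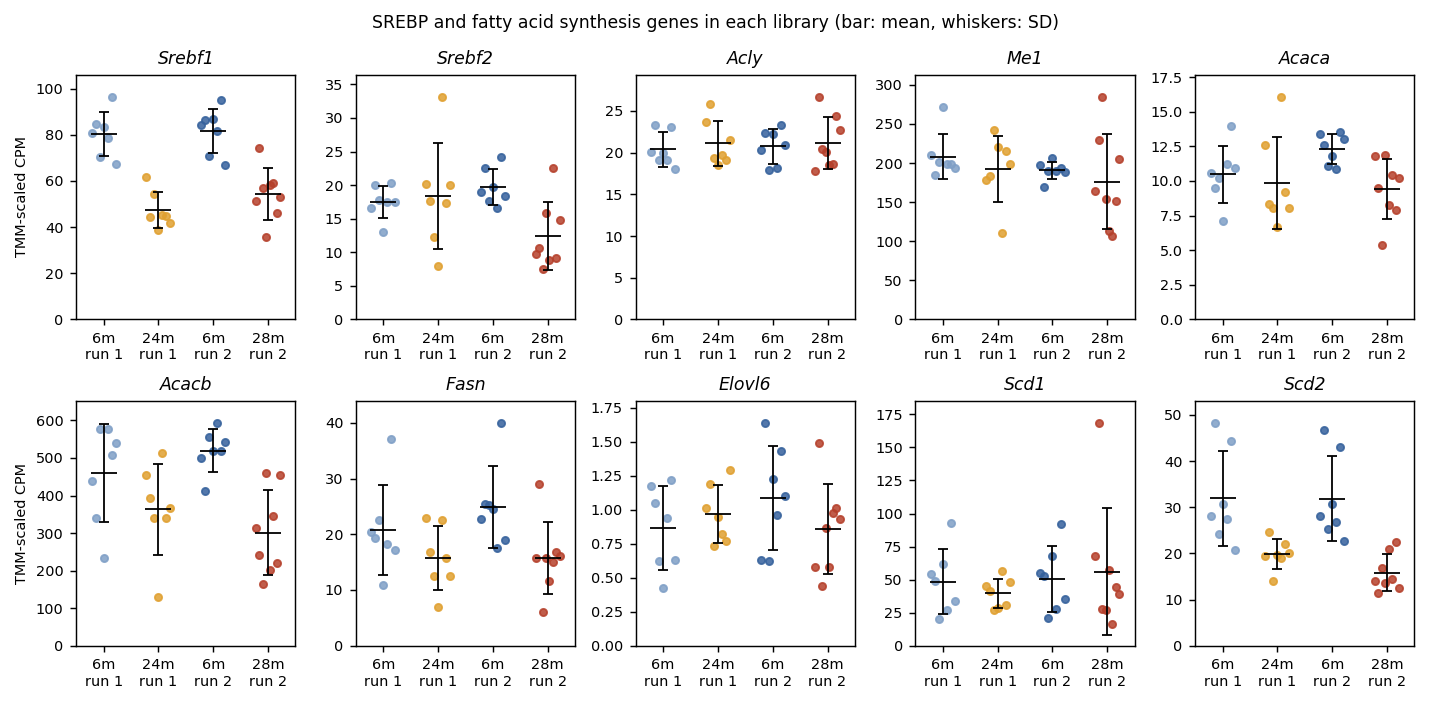
TMM-scaled CPM (vertical axes, from 0) of the 10 genes in each of the 29 libraries (points), by age and run, with the mean (bar) and SD (whiskers) of each group. The means of Srebf1 are lower in old mice of either age than in the young libraries of their run, all 8 Scd2 values at 28m (11.4 to 22.4 CPM) lie below the 7 at 6m (22.6 to 46.7), and Scd1 has 1 mouse at 28m at 168 CPM.

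Srebf1 (chr11:60199089-60222581, minus strand, GRCm38), the gene of SREBP-1a and SREBP-1c, was the member that fell at both ages. In the first run its CPM was between 67.2 and 96.4 with a median of 80.8 at 6m, and between 38.9 and 61.7 with a median of 44.8 at 24m. Every mouse at 24m was below every mouse at 6m, as held for 0.229% of all genes. Srebf1 fell by 0.77 ± 0.12 on the log2 scale (SE), with an adjusted p of 0.0165, and ranked 6 by p among all genes. This call was lost without replicate 2, 5 or 6 of the 6m mice in turn (edgeR adjusted p of 0.0548 at most), while the log2 fold change stayed between -0.85 and -0.72 when any 1 library was left out. With the length and GC trend removed it was -0.72 (adjusted p 0.0368), and without both libraries that stood apart it was also -0.72 (adjusted p 0.0177).

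In the second run Srebf1 CPM was between 66.9 and 94.96 with a median of 84.0 at 6m, and between 35.5 and 74.3 with a median of 55.0 at 28m. Of the 8 mice at 28m, 7 were below all 7 at 6m, and replicate 2 lay within the young range. Srebf1 fell by 0.62 ± 0.12 on the log2 scale (edgeR adjusted p 0.00150). With the length and GC trend removed it was -0.32 with an edgeR adjusted p of 0.106, so the 28m call did not hold there. Rai1, a gene on the opposite strand whose exons overlap Srebf1, fell by 0.68 on the log2 scale at 28m (edgeR adjusted p 0.000536) and was at -0.32 at 24m (adjusted p 0.562). The strand setting of the counting is not stated, so reads of the shared stretch cannot be told apart, nor can those of the SREBP-1a and SREBP-1c transcripts.

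Srebf2 (chr15:82147181-82205379, plus strand) fell at 28m and was near its 6m level at 24m. Its CPM was between 16.6 and 24.2 with a median of 18.9 at 6m in the second run, and between 7.54 and 22.6 with a median of 10.2 at 28m. Of the 8 old mice, 7 were below all young ones, and replicate 6 at 22.6 CPM was inside their range. Srebf2 fell by 0.69 ± 0.20 (edgeR adjusted p 0.0119), and its log2 fold change was -0.40 with the length and GC trend removed (adjusted p 0.0289). Against the first-run libraries at 6m it was -0.52 and not called (adjusted p 0.0752). Without replicate 4 among those libraries, an alternative added after seeing the data, it was -0.58 and called (edgeR adjusted p 0.0421). At 24m the values ran from 7.90 to 33.1 with a median of 17.7, against 12.95 to 20.3 with a median of 17.5 at 6m. Replicate 4 held the lowest and replicate 5 the highest value of Srebf2 at 24m, and the spread there (SD 7.90 CPM) was wider than at 6m (2.43). The fitted difference at 24m was 0.06 ± 0.24 on the log2 scale (edgeR adjusted p 0.921).

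The level of Srebf1 per kb over that of Srebf2 had a median of 5.75 in the young and 3.30 in the 24m mice of the first run, and of 5.12 in the young and 6.59 in the 28m mice of the second. The ranges overlapped in both runs, from 4.92 to 8.20 against 1.74 to 6.28 in the first and from 4.66 to 6.28 against 2.85 to 9.62 in the second.

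**Figure D2:**
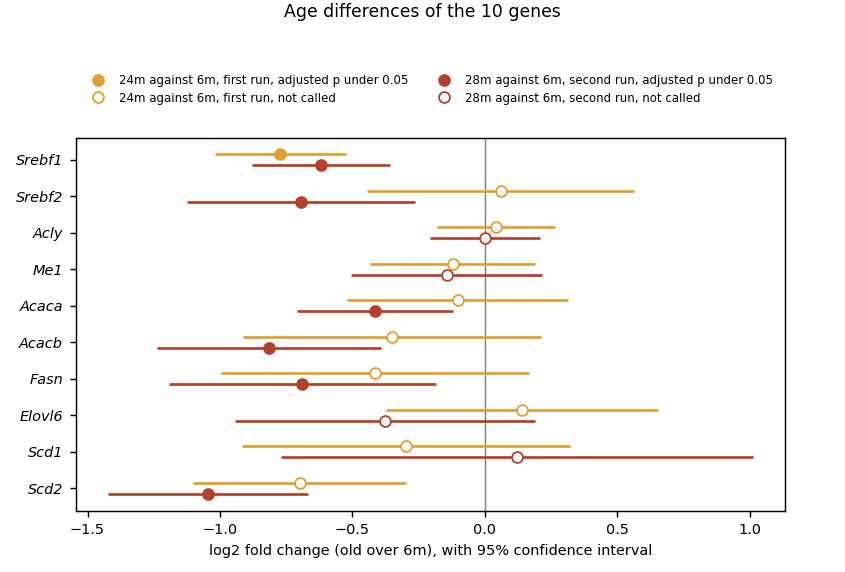
Log2 fold change (horizontal axis, old over 6m) of each gene with its 95% confidence interval, for 24m in the first run and 28m in the second run; filled points passed an adjusted p of 0.05. At 28m 6 genes lie below 0 with filled points, at 24m Srebf1 alone does, and the intervals of Acly are the narrowest around 0.

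Acly (chr11:100476353-100528000, minus strand), which splits citrate into acetyl-CoA, differed between ages by less than the spread of the mice. Its CPM was between 17.9 and 23.3 at 6m and between 17.8 and 26.7 at 28m in the second run, and between 18.05 and 23.3 at 6m and 18.6 and 25.8 at 24m in the first. The 95% interval of the log2 fold change was -0.21 to 0.21 at 28m and -0.18 to 0.26 at 24m. Me1 (chr9:86581371-86695953, minus strand), cytosolic malic enzyme, which yields NADPH, did not pass the test either, with log2 fold changes of -0.14 (95% interval -0.51 to 0.22) at 28m and -0.12 (-0.43 to 0.19) at 24m. The SD of Me1 was 60.4 CPM at 28m and 11.1 CPM at 6m in the second run. At 28m the values ran from 107 to 285 CPM with a median of 159, with 5 mice below and 2 above all young mice of the run, whose values lay between 170 and 206 CPM. An antisense gene, A330041J22Rik, overlaps Me1 and was at 87 counts or fewer.

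Both acetyl-CoA carboxylases fell at 28m, and neither passed the test at 24m. Acacb (chr5:114146535-114250761, plus strand) was at 413 to 593 CPM with a median of 519 at 6m, and at 165 to 459 with a median of 278 at 28m. At 28m 6 of 8 mice were below all young ones, and replicates 4 (459) and 8 (456) were inside their range. Acacb fell by 0.81 ± 0.20 (edgeR adjusted p 0.00472), and its log2 fold change was -0.43 (adjusted p 0.0104) with the length and GC trend removed. Against the first-run libraries at 6m it was -0.63 with an edgeR adjusted p of 0.0666, which ended the call. Without replicate 4 among those libraries, an alternative added after seeing the data, it was -0.75 and called (edgeR adjusted p 0.0197). At 24m the values were 130 to 512 CPM with a median of 367, against 233 to 577 with a median of 507 at 6m. Both lowest values were those of the libraries that stood apart, and the log2 fold change was -0.35 ± 0.26 (adjusted p 0.575) with them and -0.31 (adjusted p 0.265) without them.

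Acaca (chr11:84129672-84401651, plus strand) was at 10.9 to 13.5 CPM with a median of 12.6 at 6m and at 5.38 to 11.9 with a median of 9.86 at 28m, and 6 of the 8 old mice were below all young ones. Acaca fell by 0.41 ± 0.14 on the log2 scale (edgeR adjusted p 0.0240). With the length and GC trend removed it was 0.11 (adjusted p 0.387), so the direction turned, and against the first-run libraries at 6m it was -0.17 (adjusted p 0.428). At 24m it was -0.10 ± 0.20 (adjusted p 0.829). Per kb, Acacb stood above Acaca by a median of 73.7-fold at 6m and 51.8-fold at 28m in the second run, with ranges of 57.9 to 96.5 and 43.1 to 78.8 that overlapped.

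Fasn (chr11:120805846-120824547, minus strand), the multi-domain enzyme that builds palmitate, was at 17.5 to 40.0 CPM with a median of 24.6 at 6m in the second run, and at 6.12 to 29.03 with a median of 15.7 at 28m. At 28m 7 of 8 mice were below all young ones, and replicate 2 was above all young mice but replicate 6. Fasn fell by 0.69 ± 0.24 on the log2 scale (edgeR adjusted p 0.0266). Its log2 fold change was -0.54 (adjusted p 0.0729) without replicate 6 at 6m, -0.63 (adjusted p 0.0519) without replicate 5 at 28m, -0.42 (adjusted p 0.231) against the first-run libraries at 6m, and -0.15 (adjusted p 0.641) with the length and GC trend removed. At 24m the values were 6.99 to 22.9 CPM with a median of 15.8, against 10.9 to 37.1 with a median of 19.3 at 6m, and the log2 fold change of -0.42 ± 0.27 did not pass (adjusted p 0.527).

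**Figure D3:**
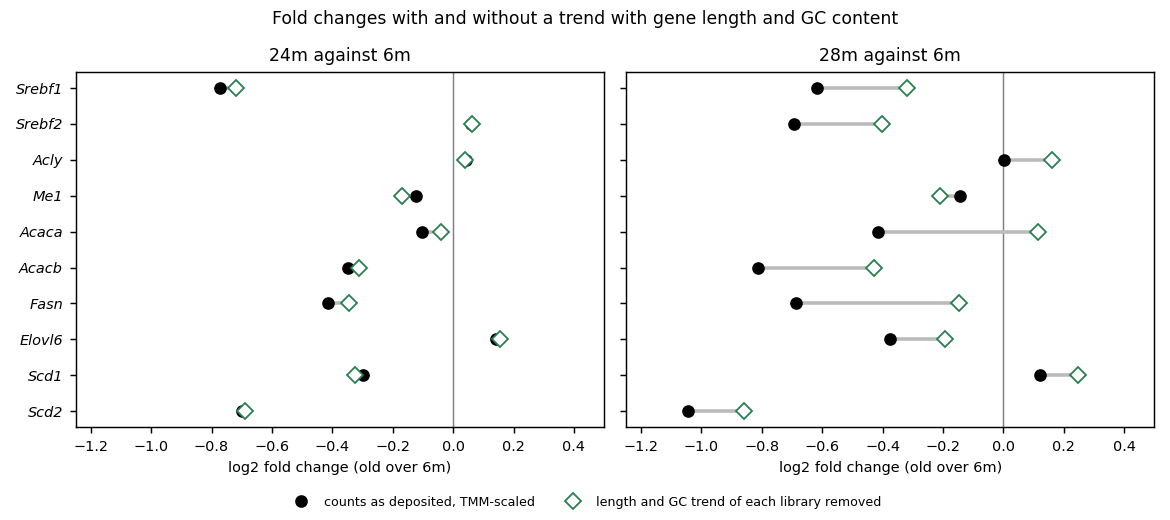
Log2 fold change (horizontal axes, old over 6m) of each gene from the counts as deposited (black) and with the trend of each library with length and GC content removed (open diamonds), at 24m (left) and 28m (right). At 28m Acaca moves from -0.41 to 0.11 and Fasn from -0.69 to -0.15, Scd2 moves from -1.04 to -0.86, and at 24m the points stay close to each other.

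The desaturases, which put the double bond into stearate and palmitate, differed in their calls, with Scd2 lower at 28m and Scd1 not past the test at either age, and the difference between them was not tested. Scd1 (chr19:44394455-44407879, minus strand) and Scd2 (chr19:44293674-44306864, plus strand) are neighbours on one chromosome. Scd2 was at 22.6 to 46.7 CPM with a median of 28.2 at 6m in the second run, and at 11.4 to 22.4 with a median of 14.2 at 28m. All 8 old mice were below all 7 young ones, as held for 6.18% of all genes. The log2 fold change was -1.04 ± 0.18 (edgeR adjusted p 0.000709), and -0.86 (adjusted p 0.00246) with the length and GC trend removed.

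Scd2 at 24m was at 13.97 to 24.7 CPM with a median of 19.7, against 20.7 to 48.2 with a median of 28.2 at 6m, and 5 of the 7 old mice were below all young ones. The log2 fold change of -0.70 ± 0.19 did not pass (edgeR adjusted p 0.201, rank 137 by p of 13103 genes), while DESeq2 gave an adjusted p of 0.0287. DESeq2 called 0.293% of 15367 genes lower at 24m, Srebf1 and Scd2 among them.

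The values of Scd1 spread more than those of any other of the 10 genes at 28m (coefficient of variation 86.2%). This spread rests in large part on replicate 2, at 168 CPM against 16.7 to 67.9 in the others. It ran from 21.2 to 92.2 CPM with a median of 53.0 at 6m in the second run, and from 16.7 to 168 with a median of 41.8 at 28m. The 95% interval of its log2 fold change, -0.77 to 1.01 at 28m, holds changes in either direction. At 24m it ran from 27.0 to 56.2 with a median of 41.4, and the log2 fold change was -0.30 (95% interval -0.92 to 0.32). Per kb, Scd1 over Scd2 was between 0.935 and 2.47 at 6m in the second run and between 1.29 and 16.5 at 28m, where replicate 2 held the 16.5 and replicate 1 the next value of 5.39.

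Elovl6 (chr3:129532355-129638495, plus strand), which lengthens palmitate to stearate, was at 0.621 to 1.64 CPM at 6m and 0.440 to 1.49 at 28m. The log2 fold changes of Elovl6 were -0.38 ± 0.27 at 28m (edgeR adjusted p 0.254) and 0.14 ± 0.24 at 24m (adjusted p 0.806). The 95% intervals ran from -0.94 to 0.19 at 28m and from -0.37 to 0.66 at 24m.

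The 28m effect was also tested against the 24m effect in a model of all libraries. None of the 10 genes, and 0% of 13455 genes, passed an adjusted p of 0.05 by edgeR, while 1 of the 10 and 1611 of all genes had an unadjusted p under 0.05, and DESeq2 called 4 genes, none of the 10. The difference nearest to the threshold among the 10 was that of Srebf2, at -0.74 on the log2 scale (95% interval -1.39 to -0.09, edgeR adjusted p 0.399). Without replicate 4 at 24m it was -0.87 with an edgeR adjusted p of 0.0449, in a fit that called 1657 genes. For Srebf1 the difference was 0.17 (-0.18 to 0.52) and for Scd2 -0.33 (-0.87 to 0.22). The 6m libraries of both runs enter this test as separate samples although they come from the same mice, and with the mouse as a random effect in limma none of the 10 passed.

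The same 7 mice at 6m were measured in both runs, which shows how far a gene's values repeat between library preparations. Per the methods these libraries are technical replicates. A mouse therefore cannot be told apart here from the collection of its muscle and the extraction of its RNA. None of the 10 genes, and 0% of 12884 genes, passed between the runs by edgeR, with 357 genes, none of the 10, at an unadjusted p under 0.05 and 0 called by DESeq2. With the mouse as a block 0 genes passed as well, but 1052 genes and 4 of the 10 had an unadjusted p under 0.05. Me1 was lower in the second run in 7 of 7 mice (log2 difference of -0.11 ± 0.04, edgeR adjusted p 0.498), and Acaca (0.25), Fasn (0.29) and Srebf2 (0.18) were higher in 5, 6 and 5 of the 7 with the same adjusted p. Leaving out replicate 4, which stood apart in the first run, the SD on the log2 scale between both libraries of a mouse was 0.04 for Scd1 and the SD between the mice 0.77. The same values were 0.05 and 0.46 for Scd2, 0.02 and 0.19 for Srebf1, and 0.14 and 0.40 for Fasn. With all 7 mice these values were 0.34 and 0.41 for Fasn, so that its difference rests on leaving out replicate 4. Differences between young mice in Scd1, Scd2 and Srebf1 were larger than those between libraries of a mouse with and without replicate 4. For Acaca (0.18 and 0.13) and Elovl6 (0.36 and 0.38) they were of like size.

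**Figure D4:**
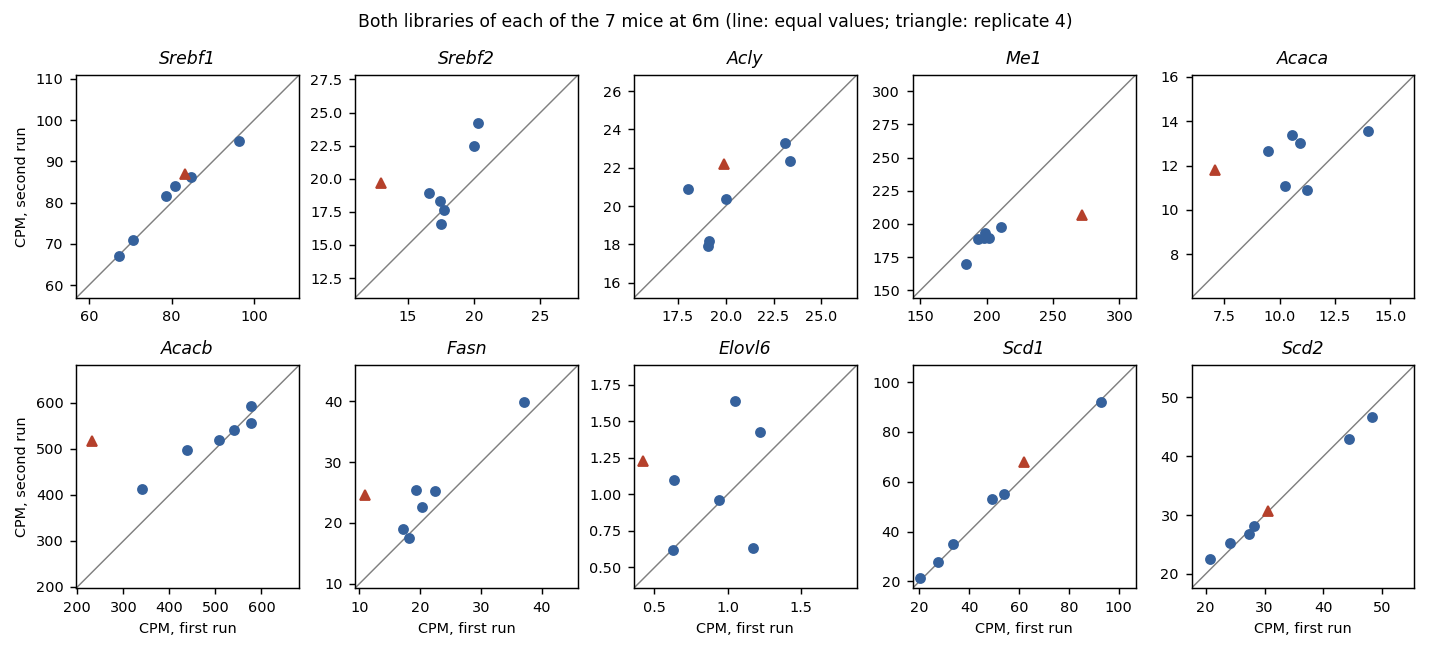
CPM of each gene in the first (horizontal) and second (vertical) library of the 7 mice at 6m; the line marks equal values and the triangle replicate 4. Scd1, Scd2 and Srebf1 lie along the line, Acaca and Elovl6 scatter about it, and replicate 4 is off the line for Acacb, Fasn, Me1 and Srebf2.

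The machinery that frees SREBPs and the factors that act beside them were taken from lists. At 28m 2 of 11 genes of SREBP processing fell and none rose, near the 22.9% of all genes called lower, and the median log2 fold change of the list was -0.16 against 0.01 over all genes. With the length and GC trend removed 1 of the 11 was lower and 1 higher (Mbtps2, the site-2 protease, at 0.17 with an edgeR adjusted p of 0.0422), and the median was 0.01 against 0.04 over all genes, so the lower median of the list did not hold. Mbtps1, the site-1 protease, fell by 0.54 on the log2 scale (edgeR adjusted p 0.00132), but was at -0.11 (adjusted p 0.115) with the length and GC trend removed. Insig1, the sterol-regulated anchor of the precursor, fell by 0.45 (adjusted p 0.0128). Of 13 lipogenic transcription factors, 5 fell and none rose, against 22.9% and 24.3% of all genes, with a median of 0.01, which was -0.10 with the trend removed. Mlxip fell by 1.14 on the log2 scale (adjusted p 0.000679), from 130 ± 7.77 to 60.0 ± 22.7 CPM, and its relative Mlxipl (ChREBP), a glucose-sensing activator of lipogenic genes, by 0.62 (adjusted p 0.00126). Rxra, the partner of LXR, fell by 0.83 (adjusted p 0.00126) and Sp1 by 0.60 (adjusted p 0.00303). These 4 calls held with the length and GC trend removed, while that of Nfya did not.

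Genes around the pathway's enzymes were called in both directions at 28m, as were all genes, of which 24.3% rose and 22.9% fell. Of 11 genes of acetyl-CoA and NADPH supply, 4 rose and 1 fell, with a median log2 fold change of 0.24. Pgd, of the pentose phosphate pathway, rose from 16.3 ± 1.60 to 24.9 ± 5.32 CPM with all 8 old mice above all young ones (log2 fold change 0.58, edgeR adjusted p 0.00182). Such a separation upwards held for 6.21% of all genes. Idh1 rose by 0.44 (adjusted p 0.00735; with the length and GC trend removed 0.19, adjusted p 0.211), Slc25a10 rose by 0.41 (adjusted p 0.0340) and Pdha1 fell by 0.37 (adjusted p 0.0342). Of 11 genes that control acetyl-CoA carboxylase, 3 rose and 2 fell, near the shares of all genes, with a median of 0.13. Mid1ip1, which is known to promote polymerisation of the carboxylase, and its partner Thrsp rose by 0.80 (adjusted p 0.00285) and 1.05 (adjusted p 0.00923). The AMP-activated kinase subunits Prkaa2 and Prkab2 fell by 0.58 (adjusted p 0.00390) and 0.91 (adjusted p 0.00651).

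Among other genes of elongation and desaturation, 12 of 17 were tested, 2 fell and 1 rose, against 22.9% and 24.3% of all genes, with a median of 0.11. After removal of the trend with length and GC, 3 fell and none rose, and the median turned to -0.16. Fads2, the delta-6 desaturase, fell by 1.05 (edgeR adjusted p 0.00579) at 2.07 ± 0.314 CPM at 6m, and Elovl5 fell by 0.29 (adjusted p 0.0218). Tecr, the last enzyme of the elongation cycle, rose by 0.26 (adjusted p 0.0449), which was 0.05 (adjusted p 0.791) with the length and GC trend removed. Hacd1, a dehydratase of the same cycle, was at -0.10 (adjusted p 0.554), and at -0.43 (edgeR adjusted p 0.00352) with the trend removed. Of 15 genes of triglyceride synthesis, 3 fell, near the share of all genes called lower, and none rose, with a median of -0.11. Lpin1 fell by 0.92 (adjusted p 0.00262), and the falls of Acsl1 (0.47, adjusted p 0.0136) and Agpat3 (0.42, adjusted p 0.0198) did not hold with the trend removed. In mitochondrial fatty acid synthesis, the separate route that feeds lipoic acid, 3 of 6 genes rose and none fell, with a median of 0.33, while 24.3% of all genes rose. Mcat rose by 0.38 (adjusted p 0.00268), Mecr by 0.43 (adjusted p 0.00486) and Cbr4 by 0.41 (adjusted p 0.0195).

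Cholesterol genes known as SREBP-2 targets were split at 28m, with 5 of 13 lower and 2 higher and a median of -0.24, against 22.9% of all genes lower and 24.3% higher. Stard4 fell by 0.98 (edgeR adjusted p 0.00289) and Dhcr7 by 0.38 (adjusted p 0.00639; -0.19, adjusted p 0.0910, with the trend removed). Mvd, earlier in the same route, rose by 0.97 (adjusted p 0.00647). The summed CPM of the list was 166 to 189 at 6m and 165 to 198 at 28m, and these ranges overlapped. At 24m 0 of the 92 genes tested in these 8 lists were called by edgeR or by DESeq2. Of the 92, 10 had an unadjusted edgeR p under 0.05, as did 1546 of all 13103 genes tested. With the trend removed, the genes of acetyl-CoA and NADPH supply had 3 higher and 1 lower at 28m by edgeR, those that control the carboxylase 2 and 2, triglyceride synthesis 1 and 1, mitochondrial fatty acid synthesis 4 and 0 and the cholesterol genes 3 and 3, against 21.7% of all genes higher and 15.7% lower. All of these lists were chosen with earlier results of these data known.

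Cell types other than muscle fibres hold these genes too, and in whole muscle fewer cells of a type cannot be told apart from less RNA per cell. The 10 markers of muscle fibres summed to 141483 CPM or more in every library. The 13 adipocyte markers summed to 194 to 235 CPM at 6m and 179 to 665 at 28m in the second run, and 4 of the 12 tested rose at 28m and none fell, against 24.3% of all genes called higher and 22.9% lower. Fabp4, which endothelial cells also express, rose from 149 ± 5.53 to 259 ± 113 CPM (edgeR adjusted p 0.0106), Cidea (1.75 on the log2 scale, adjusted p 0.00182), Retn (1.63, adjusted p 0.0297) and Pparg (0.55, adjusted p 0.0304) rose too, while Adipoq, at 4.29 CPM at 6m and 9.43 at 28m, did not pass (adjusted p 0.0974). With the length and GC trend removed, Cidea and Fabp4 were still called (edgeR adjusted p of 0.00973 and 0.0154), while Retn (1.11, adjusted p 0.104) and Pparg (0.35, adjusted p 0.113) were not. Of 8 endothelial markers 6 fell and 1 rose, Tek, Kdr, Tie1 and Cdh5 with all old mice below all young ones (as were 6.18% of all genes), and 5 of 8 fibroblast markers fell, against 22.9% of all genes, led by Pdgfra, Col1a1, Col3a1 and Dpt. With the trend removed 4 endothelial markers, Tek, Kdr, Tie1 and Cdh5, were still lower and 1 higher by edgeR, and of the fibroblast markers Col1a1 and Dpt were still lower, while Pdgfra (adjusted p 0.0927) and Col3a1 (adjusted p 0.143) were not called, against 15.7% of all genes called lower there. Of Schwann cell markers 1 of 7 rose, and 2 with the trend removed, and of 8 macrophage markers none passed, with Cd68 and Lyz2 nearest (adjusted p of 0.0875 and 0.0992). Of the 10 muscle fibre genes 4 rose, Tnni2, Tnnt3, Mb and Pvalb, and 1 fell, Myh4, and none of these 5 was called with the trend removed (edgeR adjusted p of 0.0564 to 0.832), while Acta1 (-0.22, adjusted p 0.0308) and Atp2a1 (-0.36, adjusted p 0.0452) were lower there. The part of these cell types in the values of the 10 genes was not tested beyond the correlations that follow.

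Within groups, each of the 10 genes was correlated across mice with the summed adipocyte markers on the log2 scale, 40 relations in all with exact two-sided permutation tests, and 5 had an unadjusted p under 0.05 but 0 an adjusted one (smallest Benjamini-Hochberg adjusted p 0.280). The smallest p was at 28m (n = 8), where Srebf2 was lower in mice with higher marker sums (Pearson's r -0.86, exact permutation p 0.00776; Spearman's rho -0.69, p 0.0694), as was Acacb (r -0.80, exact permutation p 0.0263; rho -0.64, p 0.0962). Without the 2 mice farthest from the median sum, r was -0.76 and -0.72. At 24m (n = 7) r was -0.88 for Srebf2 (exact permutation p 0.0206; rho -0.46, p 0.302), -0.93 for Acacb (exact permutation p 0.0280; rho -0.39, p 0.396) and -0.83 for Fasn (exact permutation p 0.0381; rho -0.21, p 0.662), and without the 2 farthest mice it was 0.08, 0.74 and 0.40, so these rest on those mice, replicate 4 among them. With the length and GC trend removed from the genes but not from the marker sum, r at 28m was -0.82 for Srebf2 and -0.73 for Acacb. These values therefore do not show the relation free of that trend. With no trend removed and Fabp4 and Cfd left out of the sum, r was -0.75 and -0.63. Without the 2 farthest mice the latter were -0.43 and -0.42, so with that sum the relation rests in part on those mice. Mice 4, 6 and 8 at 28m had the 3 highest values of Srebf2 and of Acacb, the 3 lowest marker sums (179 to 205 CPM) and the smallest deficit of long genes (-0.40 to -0.06), so these measures moved together and which of them goes with Srebf2 was not tested. For Scd1 at 28m r was 0.56 (exact permutation p 0.147; rho 0.71, p 0.0576; r 0.35 without the 2 farthest mice), and 0.78 with Fabp4 and Cfd left out of the sum (exact permutation p 0.0173, adjusted p 0.574; rho 0.83, p 0.0154; r 0.60 without the 2 farthest mice). For Scd2 r was 0.64 (exact permutation p 0.0909), and 0.75 with the length and GC trend removed from Scd2 but not from the sum (exact permutation p 0.0347, adjusted p 0.334).

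**Figure D5:**
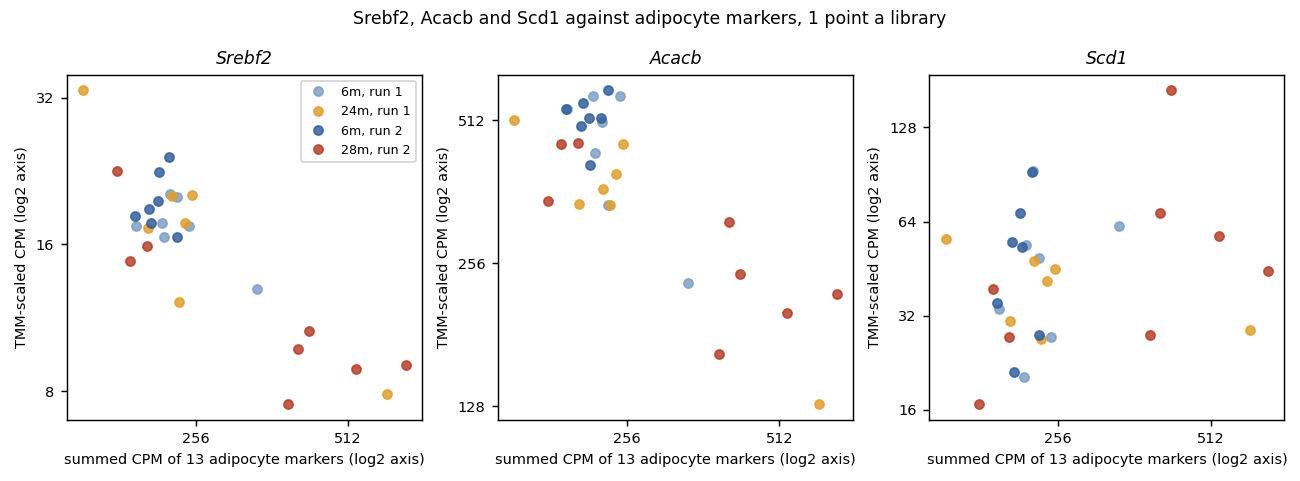
TMM-scaled CPM of Srebf2, Acacb and Scd1 (vertical, log2 axes) against the summed CPM of 13 adipocyte markers (horizontal, log2 axis) in each of the 29 libraries, by group. At 28m 3 mice lie at sums of 179 to 205 CPM with the group's highest Srebf2 and Acacb, and 5 lie at 390 to 665 CPM with lower values of both.

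Log2 CPM was taken as its deviation from the mean of each library group, and genes were compared by these deviations over the 29 libraries. Among 13455 genes, those that varied most like Srebf1 were Mamdc2 (Pearson's r 0.69), Nck2, Chad, Zfp354a and Aqp7 (0.63). Of the other 9 members Scd1 stood nearest to Srebf1, at rank 34 with r 0.53. Those that varied most like Fasn were Ptpru (0.80), Acaca (0.76, rank 2), Lrrc56, Col11a2 and Tmem220 (0.75). Libraries share age, run and the length trend, and these values are descriptions. Srebf1 and Srebf2 did not vary alike within groups (r 0.07).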

How the data were processed

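Raw read counts per gene symbol were deposited for 29 libraries of 22 mice. Per the labels and methods, the authors sequenced 75-base single-end poly-A libraries and counted reads with STAR 2.5.4b on mm10, with bcl2fastq 2.20, R 3.5.1 and DESeq2 1.22.2 also named in the submitters' processing notes. The strand setting is not given in the sources used here. GEO's design text gives the sizes of the old groups the other way round, and the sample labels were used. Totals were between 17633475 and 33499162 counts (median 24250878). A count of 3 was taken as the floor, and every member was above it in every library.

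Genes were kept by filterByExpr, scaled by TMM and tested over all genes with edgeR 4.0.16 in R 4.3.3 (quasi-likelihood test, Benjamini-Hochberg adjusted p under 0.05), with limma 3.58.1, DESeq2 1.42.0 and other scalings and filters as alternatives. The length and GC trend of each library was fitted with mgcv 1.9.3 on GENCODE exon models of GRCm38, for the 20202 symbols matched directly and 1879 through synonyms, leaving 456 unmatched. CPM values were TMM-scaled over all libraries, and log2 CPM used a prior count of 2. The fits were also run on simulated counts with the same dispersion for every gene. These had no length trend, no library that stood apart and no shared mice, so the fits were not tested under those features. The 10 members and the 14 gene lists (154 genes, of which 7 were found under older symbols and 1 was not found) were chosen with earlier results of these data known. From each list, up to 4 called genes with the smallest adjusted p at 28m were named, or up to 2 where none was called, with Nfya, Adipoq, Mbtps2, Hacd1, Acta1, Atp2a1, a muscle fibre gene beyond 4 and 2 overlapping genes named after their values were seen. Single values of 2 list genes are not reported here. Mice were paired across the runs by the repeat mark in the sample titles, and both libraries of a mouse deviated together (r 0.218 to 0.814 over the 7 mice).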

Additional observations from a re-analysis of the deposited data

Results flagged for a closer look

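Of the 40 sets of values tested (10 genes in 4 groups), 4 held a library farther from the rest than Dixon's 95% criterion allows, and chance alone would flag about 1 in 20 sets. In Fasn, replicate 6 at 6m in the second run was at 40.0 CPM against 17.5 to 25.3 in the other 6 mice, and the same mouse was also the highest in the first run, at 37.1 CPM. Fasn was also high in replicate 2 at 28m, at 29.03 CPM against 6.12 to 16.9 in the others. That mouse held the outlying value of Scd1 as well, at 168 CPM against 16.7 to 67.9, with the lowest Scd2 of its group (11.4 CPM) and the highest Srebf1 (74.3 CPM). Me1 was at 271 CPM in replicate 4 at 6m in the first run, against 184 to 211 in the others. This is the library whose long genes were low against its short ones (-1.03 on the log2 scale), and the other library of that mouse was at 206 CPM.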

How the results depend on the processing

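Of the 6 members called at 28m, all 6 were called with DESeq2, limma-voom, DESeq2 size factors, upper-quartile scaling, no filter and at least 10 counts in every library, and 5 with the dispersion over all libraries. The count was 3 with the length and GC trend removed and 2 (Srebf1 and Scd2) with the 6m libraries of the other run. Without the first-run library that stood apart, an alternative added after seeing the data, it was 4 (Srebf1, Srebf2, Acacb and Scd2). In that fit 2324 of 13071 genes were called lower. Leaving out 1 library gave 5 to 6. At 24m the count of 1 became 2 with DESeq2 and 0 to 1 when 1 library was left out. For the difference between the ages it was 0, and 0 to 1 when 1 library was left out.

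Signs turned at 28m for Acly with limma-voom (-0.00798) and with no filter (-0.00735), for Acaca with the trend removed (0.11) and for Scd1 with limma-voom (-0.0574). At 24m they turned for Srebf2 with limma-voom (-0.0450) and with the 6m libraries of the other run (-0.12), and for Elovl6 with the latter (-0.19). With 1 library left out, log2 fold changes ran from -0.0458 to 0.0349 for Acly and from -0.35 to 0.34 for Scd1 at 28m, and from -0.14 to 0.19 for Srebf2 and from -0.0198 to 0.0808 for Acly at 24m. The cause was not tested. Elovl6 had under 10 counts in some libraries and gave no value under that filter. Of 249 values of single members under alternatives at 28m, 227 kept their direction and side of the threshold, as did 229 of 239 at 24m.

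With the mouse as a replicate block, 0 members were called between the 6m libraries of the runs and 0 in the difference between the ages, as without it, and the pairing changed no other call. The 24m and 28m comparisons hold different mice in each group and have no pairs. For adipocyte markers, 0 of 40 relations passed under any alternative. Of the limits, the 2 ages were sequenced in different runs, and with 7 to 8 mice a group the 95% interval of Scd1 at 28m ran from -0.77 to 1.01.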
